A study of Mus musculus with 14 samples.

Results

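How pregnancy changed gene expression was compared between 2 sorted cell populations of the mouse mammary gland, called P4 and P5. The comparison used 8 of the series' 14 arrays, chosen by their labels: both virgin and both pregnant replicates of each population, from wild-type mice of strain FVB/N-J. Per the labels, P4 was enriched in mammary stem cells (MaSC), P5 was enriched in luminal progenitors, and both were sorted by flow cytometry. The titles give the same gate, CD24+CD29hi, to both, although their contents are named differently. Total RNA of the sorted cells was labelled with Cy5 and hybridised against a Cy3-labelled common reference, the Universal Mouse Reference RNA pooled from 11 mouse cell lines, so each value is the log2 of Cy5 over Cy3. The labels give no day of pregnancy, no age and no number of mice, and they do not say that replicates came from separate animals. The p-values therefore rest on a spread between arrays that could be purely technical.

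The mammary epithelium has an inner luminal layer and an outer basal layer of contractile myoepithelial cells. Some luminal cells carry the receptors for oestrogen and progesterone and pass the hormone signal on to their neighbours through secreted factors such as amphiregulin. During pregnancy, progesterone and prolactin drive the growth of alveoli, and the alveolar luminal cells switch on milk protein genes, fatty acid synthesis and the secretion of milk fat, with the transcription factor STAT5 acting downstream of prolactin. Basal cells contract in lactation to expel milk, and the fraction sorted as CD24+CD29hi is the one known to hold cells that can regrow a gland on transplantation.

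The labelled populations differed in their markers in the virgin gland. The median log2 ratio over 17 basal and myoepithelial genes was 4.67 and 4.24 on the virgin P4 arrays against 0.97 and 0.54 on the virgin P5 arrays. The median over 16 general luminal genes ran the other way, 1.56 and 1.18 in virgin P4 against 3.82 and 3.81 in virgin P5. In the pregnant gland the basal median was 3.61 and 5.24 in P4 against 1.24 and 1.21 in P5, so the populations still did not overlap in it. The luminal median, by contrast, was 1.59 and 2.37 in pregnant P4 against 1.78 and 2.38 in pregnant P5, and there they overlapped. In RNA of sorted cells, fewer cells of a type and less RNA per cell cannot be told apart.

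In the Cy5 channel, 77.6% to 86.7% of an array's probes exceeded background clearly, with median Cy5 intensities of 104 to 196. Replicate arrays of a group correlated at 0.843 to 0.948 over genes. The scans were not balanced: replicate 1 of the virgin groups was scanned in scan 1, replicate 1 of the pregnant groups in scan 3, and replicate 2 of all 4 groups in scan 2. Scan 3 had 111 to 236 saturated Cy5 spots per array, against 0 to 15 in the other scans. An offset common to all arrays of a scan cancels in the difference between the populations but not in either population's own effect. Scan 2 alone gives every value without such a scan offset, from 1 array a group. Within scan 2, however, pregnant P5 replicate 2 was on slide 4, and the other replicate 2 arrays of P4 and P5 were on slide 2. A slide offset thus does not cancel in the scan 2 values for P5 or for the difference.

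The sequences of 2 sets are shown, for the gene read by a pair of separate probes and for the promoters of named genes that hold the letters of a STAT5 site. Abcg2 encodes a transporter that pumps small molecules, riboflavin among them, into milk, and its effect was larger in P5 than in P4. Its kept probe, placed by the array design at chr6:58658701-58660383 of build mm7, and its other probe, at chr6:58646466-58651396, are 60 bases each. Both intervals are longer than the probe, 1683 and 4931 bases, and the files give no strand for them.
Abcg2, kept probe: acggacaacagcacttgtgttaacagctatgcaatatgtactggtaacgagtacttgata
Abcg2, other probe: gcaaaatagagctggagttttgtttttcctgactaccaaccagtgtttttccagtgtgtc
These oligos share no stretch of the transcript, and they gave nearly the same effects. The kept probe had an effect of 1.51 in P4 and 5.84 in P5, and the other probe 1.65 and 5.59. Their differences between the populations were -4.33 and -3.94.

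STAT5 binds the spaced palindrome TTCNNNGAA, which reads the same on both strands. RefSeq promoter windows on GRCm38.p6 were found for 45 of the 64 genes named below for their class or as markers, 60 windows in all. In 4 windows the letters lay within the 250 bases before the start, and these are printed 5′ to 3′ on the gene's strand with the match in capitals: 211 bases upstream in Arl10 (chr13:54574797-54575046, plus strand), 11 in Tsc22d1 (chr14:76414711-76414960, plus strand), 162 in Fgb (chr3:83049864-83050113, minus strand) and 215 in Adcy7 (chr8:88288816-88289065, plus strand).
Arl10: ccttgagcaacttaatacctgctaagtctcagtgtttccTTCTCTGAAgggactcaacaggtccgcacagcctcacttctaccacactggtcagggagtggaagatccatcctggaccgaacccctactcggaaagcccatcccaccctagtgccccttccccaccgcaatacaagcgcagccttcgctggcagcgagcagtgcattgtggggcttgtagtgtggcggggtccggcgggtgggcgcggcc
Tsc22d1: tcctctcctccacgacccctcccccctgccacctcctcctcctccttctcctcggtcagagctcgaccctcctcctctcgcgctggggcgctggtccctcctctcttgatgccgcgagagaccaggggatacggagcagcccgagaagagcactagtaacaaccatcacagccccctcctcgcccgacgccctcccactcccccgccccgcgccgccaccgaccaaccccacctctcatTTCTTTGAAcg
Fgb: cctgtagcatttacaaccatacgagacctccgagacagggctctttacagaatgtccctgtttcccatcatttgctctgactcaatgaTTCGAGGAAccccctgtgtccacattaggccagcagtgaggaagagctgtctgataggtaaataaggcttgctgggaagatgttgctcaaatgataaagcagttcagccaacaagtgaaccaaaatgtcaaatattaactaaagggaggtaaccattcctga
Adcy7: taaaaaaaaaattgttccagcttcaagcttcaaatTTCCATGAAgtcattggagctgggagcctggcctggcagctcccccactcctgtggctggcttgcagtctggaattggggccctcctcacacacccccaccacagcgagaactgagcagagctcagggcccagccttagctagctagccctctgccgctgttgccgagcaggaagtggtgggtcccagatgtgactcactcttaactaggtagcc
The 4 windows were counted over the 250 bases before the start alone. The shares that follow were counted over all 300 bases of a window, 250 before and 50 after the start. These letters were present in 8.30% of all 32851 windows and in 7.52% of the 17789 windows of tested genes. Of the windows of genes described below, they were in 10.6% for genes up in both populations, 5.56% for genes down in both, 6.91% and 5.76% for genes up and down in P5 alone, and 8.11% and 11.2% for genes up and down in P4 alone. These are matches of letters only, and they say nothing of binding.

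Pregnancy changed more genes in P5 than in P4. In P4, 878 of 23644 genes with an estimate changed at an adjusted p under 0.05 (3.71%, limma with Benjamini-Hochberg adjustment over all genes), 352 up and 526 down. In P5, 5079 changed (21.5%), 2545 up and 2534 down. The effect of pregnancy, pregnant minus virgin log2 ratio, had an SD over genes of 0.560 in P4 and 0.886 in P5, with 1731 and 3878 genes at an absolute effect of at least 1. The difference of the effects, P4 minus P5, was itself tested, and 1911 genes were called (8.08%), 985 above 0 (4.17%) and 926 below 0 (3.92%). Of these, 1685 differed by at least 2-fold. The 2 effects share no array but share the scans and the reference RNA, and over genes they correlated at 0.426 (Pearson) and 0.322 (Spearman), a description in which genes are not independent.

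Responses were counted by kind. A shared response was called in both populations with the same sign, which held for 362 genes (1.53%), 146 up and 216 down. A response restricted to 1 population was called in the difference and in that population, while in the other it was not called and its effect was under 1 (log2). This held for 1436 genes in P5 (6.07%), 704 up and 732 down, and for 193 in P4 (0.816%), 76 up and 117 down. An opposite response was called in the difference and in both effects with opposite signs, which held for 62 genes (0.262%), 45 up in P4 and down in P5 and 17 the reverse. Among the shared genes, the difference was called in 78, and in 74 of those the larger effect was that in P5. The remaining 142 genes called in the difference fell in none of these kinds.

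The counts moved with single arrays and with the scaling, and under median centring the balance of directions moved as well. The 1911 calls in the difference became 778 without virgin P4 replicate 2, 897 without virgin P4 replicate 1, 911 and 1040 without virgin P5 replicates 1 and 2, 1153 without pregnant P5 replicate 2 and 1196 without pregnant P4 replicate 1. The 878 calls in P4 became 156 and 199 without virgin P4 replicates 2 and 1, and 335 and 488 without pregnant P4 replicates 1 and 2. The 5079 calls in P5 became 2390, 3210 and 3339 without virgin P5 replicate 1, virgin P5 replicate 2 and pregnant P5 replicate 2. Each of these counts kept an excess of P5 over P4. Centring each array on its median in place of loess moved the median difference over all genes from -0.0848 to 0.225, left 650 calls in the difference and shifted the share above 0 from 51.5% to 87.1%. With the local backgrounds as given it was 63.1%. The share of calls that were up became 56.1% in P4 (40.1% with loess) and 27.6% in P5 (50.1% with loess). Arrays with the same replicate number deviated together within the virgin and within the pregnant groups, with correlations of 0.313 to 0.686 over 6 pairs. With a replicate block in each condition, 6263 genes were called in the difference, among them all 1911, with 374 genes restricted to P4 and 3395 to P5.

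**Figure D1:**
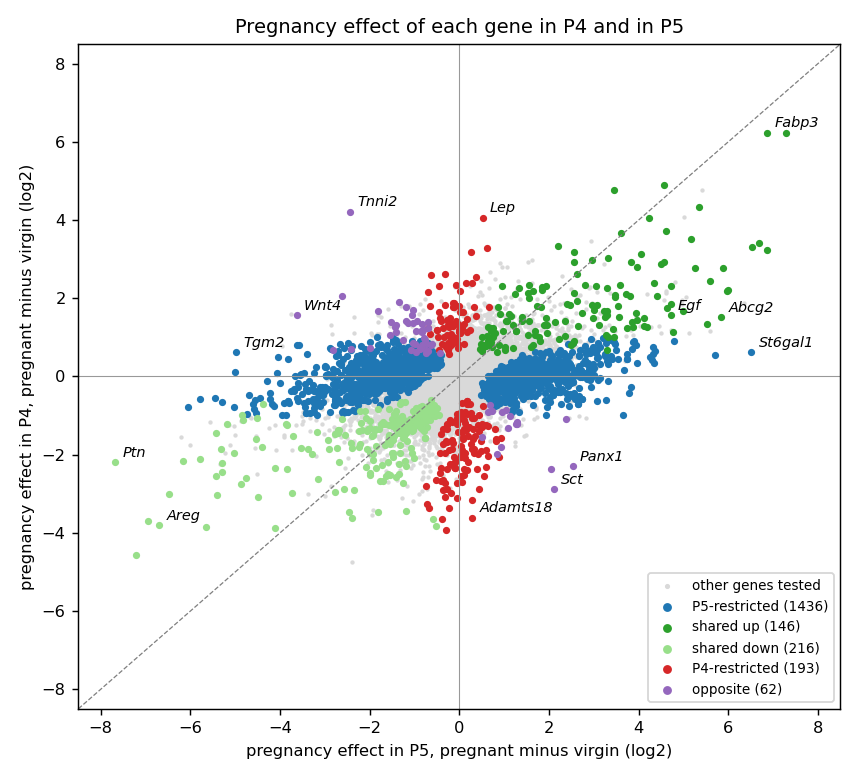
Effect of pregnancy (pregnant minus virgin, log2) in P5 on the x axis and in P4 on the y axis, 1 point a gene, coloured by the kind of response (blue restricted to P5, red restricted to P4, greens shared up and down, purple opposite, grey all others). The points spread more widely along the P5 axis (SD 0.886) than along the P4 axis (SD 0.560), and the 62 opposite genes lie upper left and lower right.

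Fabp3, Csn1s2b and Scd1 were among the leading genes of the shared rise. Fabp3, which carries fatty acids inside the cell, stood at a log2 ratio of -1.07 and -1.66 in virgin P4 and 4.10 and 5.62 in pregnant P4, and at -0.55 and -1.28 in virgin P5 and 4.23 and 7.69 in pregnant P5. Csn1s2b, a casein gene, went from 0.07 and 0.18 to 5.29 and 7.40 in P4. In P5 it went from 0.35 and 0.03 to 5.53 and 9.42. It had saturated spots on 2 arrays, and 1 of 2 virgin P4 arrays was well above background. The other probe of Csn1s2b had effects of 1.34 in P4 and 4.72 in P5, a difference of -3.39 against -1.06 on the kept probe. Scd1, the desaturase that makes monounsaturated fatty acids, went from -0.53 and -0.67 to 4.02 and 3.44 in P4 and from 0.44 and 0.30 to 5.69 and 5.74 in P5. For all 3 genes every pregnant array was above every virgin array in both populations. Scd1 rose 20.1-fold in P4 (log2 4.33 ± 0.31 SE, adjusted p 0.00065) and 40.6-fold in P5 (5.34 ± 0.31, adjusted p 2.9e-05), and its difference of -1.01 was not called (adjusted p 0.21).

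The other genes of the shared rise had effects of 3.32 to 4.89 in P4 and 3.46 to 6.69 in P5. They were Cidea, a protein of lipid droplets, Olah, the thioesterase that releases medium-chain fatty acids, Lpl, the lipase that takes up fatty acids from circulating lipoproteins, Slc39a8, an importer of zinc and manganese, Chrdl2, Sftpd and Fam234b. Olah was not well above background in virgin P4. Other probes of Fam234b had effects of 0.08 to 0.10 in P4 and 0.17 to 0.45 in P5. Those of Slc39a8 had effects of 1.01 and 0.53 in P4 and 1.92 and 2.01 in P5. The other probe of Lpl gave 3.03 in P4 and 5.37 in P5. Lpl and Slc39a8 rose more in P5: Lpl by 3.41 in P4 and 6.69 in P5 (difference -3.28, adjusted p 0.015) and Slc39a8 by 3.32 and 6.53 (difference -3.22, adjusted p 0.039). The P4 calls of Fabp3, Csn1s2b and Slc39a8 were lost without virgin P4 replicate 1 or 2 or without pregnant P4 replicate 2, with adjusted p of 0.0675 to 0.108 for Fabp3, 0.105 to 0.147 for Csn1s2b and 0.0512 to 0.113 for Slc39a8. That of Cidea was lost without any 1 of 6 arrays, with adjusted p of 0.0509 to 0.154. Sftpd lost its P4 call without either virgin P4 array (adjusted p 0.0819 and 0.118), and Lpl and Chrdl2 theirs without virgin P4 replicate 2 (adjusted p 0.0572 and 0.0761). Lpl lost its call in the difference without any 1 of 4 arrays (adjusted p 0.0566 to 0.0607).

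Areg and Crym were among the leading genes of the shared fall. Areg, the amphiregulin gene, stood at 2.64 and 2.73 in virgin P4 and -0.85 and -1.41 in pregnant P4, and at 5.91 and 5.85 in virgin P5 and -0.58 and -1.06 in pregnant P5. It was not well above background on any pregnant array, so the pregnant values are a floor and have no order among themselves. Crym, which binds thyroid hormone in the cytosol, fell by 3.01 in P4 and by 6.47 in P5 on the log2 scale (difference 3.45 ± 0.34, adjusted p 0.0013). In both genes the virgin P5 arrays were highest, virgin P4 came next, and the pregnant arrays of both populations were lowest.

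Other genes that fell in both were the fibrinogen chains Fgb and Fgg, the water channel Aqp5, Ly6d and Lypd3, which are anchored at the cell surface, S100a14, Smim3 and Plekhh1. Fgb was well above background on 1 of 2 arrays in each pregnant group. The effects of these genes ran from -2.97 to -4.56 in P4 and from -2.77 to -7.22 in P5. Smim3, S100a14 and Lypd3 fell by nearly the same amount in both, by 3.88 and 4.10, by 2.99 and 3.73, and by 2.97 and 2.77, with differences that were not called (adjusted p 0.86, 0.26 and 0.90). The P4 calls of Ly6d, Aqp5 and Lypd3 were lost without virgin P4 replicate 1 or pregnant P4 replicate 1 (adjusted p 0.0532 to 0.0920), those of Fgg without any 1 of 3 P4 arrays (0.0629 to 0.0818), and those of Fgb without pregnant P4 replicate 1 (0.0591) and Plekhh1 without virgin P4 replicate 1 (0.0645).

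Genes for which P5 answered far more strongly include 3 with a known place in milk. St6gal1, which adds sialic acid to glycoproteins in alpha-2,6 linkage, was at -0.04 and 0.43 in virgin P4, 0.67 and 0.95 in pregnant P4, -2.50 and -2.08 in virgin P5 and 4.45 and 4.00 in pregnant P5. It rose 91.5-fold in P5 (log2 6.52 ± 0.25 SE, adjusted p 6.8e-06), while its P4 effect of 0.61 was not called (adjusted p 0.29). The lowest array for St6gal1 was in virgin P5 and the highest in pregnant P5, with all P4 arrays between, and the difference was -5.90 ± 0.36 (adjusted p 0.00021). Its other probe gave a smaller P5 effect, 1.15, and a difference of -1.29. Abcg2 was at 0.80 and 0.53 in virgin P4, 1.97 and 2.37 in pregnant P4, -0.46 and -0.46 in virgin P5 and 5.48 and 5.27 in pregnant P5. It rose 2.84-fold in P4 and 57.2-fold in P5, with a difference of -4.33 ± 0.24 (adjusted p 0.00021). Egf, a growth factor secreted into milk, was at -0.45 and -0.59 in virgin P4, 1.14 and 0.95 in pregnant P4, -0.32 and -0.51 in virgin P5 and 4.23 and 4.38 in pregnant P5. It rose 2.96-fold in P4 and 26.3-fold in P5, with a difference of -3.15 ± 0.20 (adjusted p 0.00028). For Abcg2 and Egf every pregnant array was above every virgin array, and pregnant P5 was above pregnant P4. Within scan 2 the differences were -5.57 for St6gal1, -3.89 for Abcg2 and -3.34 for Egf. Median centring ended the call for Abcg2's difference (adjusted p 0.0763).

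Other genes rose in P5 and little or not at all in P4. Drd4, a dopamine receptor, and Kcnk6, a potassium channel, rose by 5.52 and 6.34 in P5. In P4 Drd4 rose by 1.34, and the effect of 1.87 for Kcnk6 was not called (adjusted p 0.057). Tent5c, a poly(A) polymerase, rose by 5.69 in P5 against an effect of 0.55 in P4 (adjusted p 0.62). Adamts5, a secreted protease that cleaves proteoglycans, rose by 5.6, Ccdc74a by 5.13, Slc6a16 by 4.35, Sema7a, a membrane-anchored semaphorin, by 3.82 and Slc16a1, a lactate transporter, by 2.83. None of these 5 was called in P4, with effects of -1.05 to 1.15. Odc1, the first enzyme of polyamine synthesis, rose by 3.66 in P5, and its P4 effect of -0.99 (adjusted p 0.16) lies just inside the limit of 1 that defines a restricted response. Median centring ended the calls in the difference for Tent5c, Adamts5, Sema7a, Slc6a16 and Slc16a1, with adjusted p of 0.0631 to 0.259.

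The leading falls restricted to P5 were those of Phyh, Samd5, AW112010, Tgm2, Fgfr2, Cdo1 and Krt7. Tgm2, a transglutaminase that crosslinks proteins, was at 2.84 and 2.63 in virgin P4, 3.15 and 3.54 in pregnant P4, 4.31 and 5.03 in virgin P5 and -0.59 and -0.03 in pregnant P5. It fell by 4.98 in P5 (adjusted p 6.0e-05), and the pregnant P5 arrays were below all others, which did not overlap with them. Phyh, a peroxisomal enzyme that breaks down branched fatty acids, fell by 6.06, Samd5 (well above background on 1 of 2 pregnant P5 arrays) by 5.78, AW112010 by 5.45 and Fgfr2, a receptor for fibroblast growth factors, by 5.01. Krt7, a luminal keratin, fell by 3.62 and Cdo1, a cysteine dioxygenase, by 4.04. The difference for Krt7 lost its call without virgin P4 replicate 2 or virgin P5 replicate 1 (adjusted p 0.0605 and 0.0662), and that for Cdo1 without any 1 of 6 arrays (0.0732 to 0.155). That for Fgfr2 was lost without the 3 arrays of scan 3 (0.0654).

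In 4 further genes the fall was far larger in P5. Ptn, the secreted growth factor pleiotrophin, was at 4.18 and 4.19 in virgin P4, 1.80 and 2.18 in pregnant P4, 6.50 and 6.07 in virgin P5 and -1.70 and -1.10 in pregnant P5. It fell by 2.20 in P4 and by 7.68 in P5 (difference 5.48 ± 0.51, adjusted p 0.0012), so that the order of the populations turned: P5 was above P4 in the virgin gland and below it in the pregnant gland. Tmem158, Piezo2, a mechanically gated channel, and Lmo7 fell in P5, with effects of -6.21, -5.57 and -3.58, against P4 effects of -1.54, -1.16 and 0.80 that were not called. The differences for Tmem158 and Piezo2 lost their calls without virgin P4 replicate 2 (adjusted p 0.0617 and 0.0615), and that for Piezo2 also without virgin P5 replicate 1 (0.0662).

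**Figure D2:**
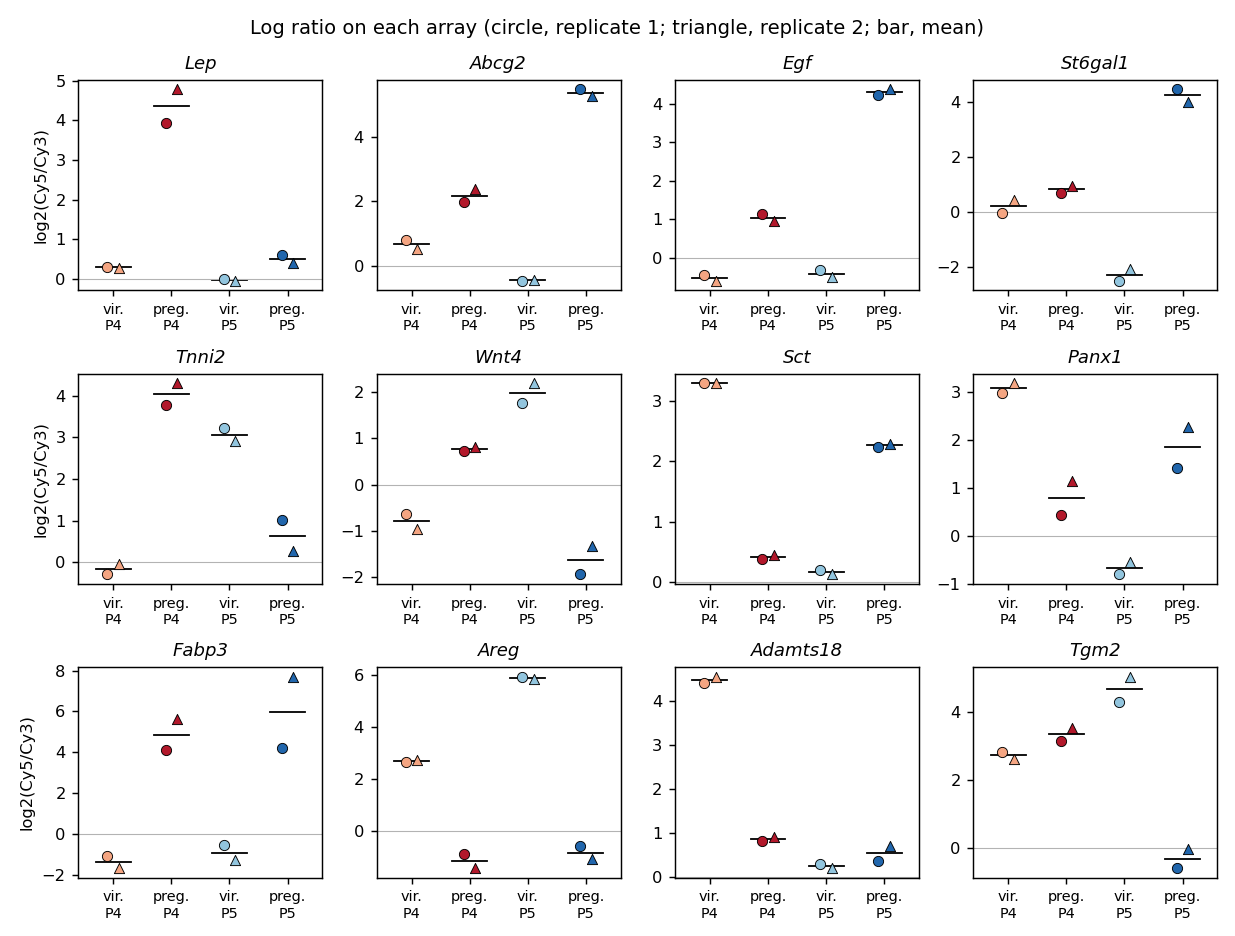
Log2 of Cy5 over Cy3 (y axis) of 12 named genes on each of the 8 arrays, grouped as virgin and pregnant P4 and P5; circles are replicate 1, triangles replicate 2 and bars group means (n = 2). St6gal1, Abcg2 and Egf reach 4.00 to 5.48 in pregnant P5, and Lep is at 3.92 and 4.78 in pregnant P4 and below 0.7 elsewhere.

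Fatty acid and triglyceride synthesis moved in both populations and further in P5. Of 20 such genes, 10 rose in P4 (1.49% of all genes rose there) and 17 rose in P5 (10.8%), where Dgat2, which makes triglycerides, fell by 3.96. All 10 that rose in P4 also rose in P5. The list's median log2 ratio was -0.07 and 0.00 in virgin P4, 1.90 and 1.32 in pregnant P4, 0.16 and 0.26 in virgin P5 and 3.11 and 3.18 in pregnant P5, so the groups did not overlap between conditions. The median effect was 1.26 in P4 and 2.77 in P5, and the median difference was -1.58, against -0.0848 over all genes. The difference was called below 0 in 3.92% of all genes. In 7 of the 20 the difference was called, all with the larger effect in P5. Acaca, the rate-limiting enzyme of fatty acid synthesis, rose by 1.86 in P4 and 4.71 in P5 on its kept probe. Other probes of Acaca had effects of 0.01 to 0.25 in P4 and 0.76 to 1.80 in P5, and its P4 call was lost with the mean over probes. Elovl5, a fatty acid elongase, had effects of 0.69 (not called) and 3.50. The others were Lpl, Acsl4, Elovl1, Gpat4 and Scd2. Without virgin P4 replicate 2, 3 of the 10 P4 calls remained. Of the 7 calls in the difference, 4 remained without virgin P4 replicate 1 or 2 or pregnant P5 replicate 2, and under median centring none of the 7 did.

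Milk fat secretion and milk proteins behaved unlike each other. Of 10 genes of milk fat globules and lipid secretion, 4 rose in P4 and 9 in P5, with median effects of 2.05 and 3.68. Of all genes, 1.49% rose in P4, 10.8% rose in P5 and 3.92% were called below 0 in the difference. The difference was called in 3, all larger in P5: the fatty acid transporter Cd36 (2.43 and 5.59), the calcium pump of milk secretion Atp2b2 (1.96, not called, and 4.97) and the mucin Muc1 (0.52, not called, and 2.46). Of 12 milk protein genes, Csn1s2b alone rose in P4, and Csn1s2b, Wap and Lpo rose in P5. The milk protein median was already 4.12 and 3.46 in virgin P4 and 5.17 and 4.91 in virgin P5, and it stood at 4.44 and 6.88 in pregnant P4 and 5.59 and 8.14 in pregnant P5. Within each population the virgin and pregnant arrays did not overlap in that median, but pregnant P4 replicate 1 lay below both virgin P5 arrays, and the pregnant arrays of each population lay far apart, with replicate 2 the higher in both. In the secretion list none of the 4 P4 calls remained without either virgin P4 array or pregnant P4 replicate 2, none of the 3 calls in the difference without virgin P4 replicate 1, virgin P5 replicate 2 or pregnant P4 replicate 1, and 6 of the 9 P5 calls without virgin P5 replicate 1. Wap lost its P5 call without any 1 of 3 arrays (adjusted p 0.0845 to 0.0877).

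Cholesterol synthesis had similar median effects in both populations. Of 19 genes, 6 rose in P4 and 9 in P5 (1.49% and 10.8% of all genes), with median effects of 1.24 and 1.00 and a median difference of -0.05. Sqle, the squalene epoxidase, rose by 1.82 in P4 and 2.46 in P5, with a difference that was not called (adjusted p 0.22). The gene called in the difference was Srebf2, which encodes the regulator of this pathway: it rose by 1.17 in P4 and fell by 0.85 in P5 (difference 2.03, adjusted p 0.0037). Averaging Srebf2's probes turned its P5 effect to 0.22, which was not called, and ended its call in the difference. Without virgin P4 replicate 2, 1 of the 6 P4 calls remained, and under median centring none. Without virgin P5 replicate 1, 5 of the 9 P5 calls remained.

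Genes of hormone-sensing luminal cells fell in P5. Of 13, 12 fell in P5 (10.7% of all genes fell there) and 4 fell in P4 (2.22%), namely Areg, Cited1, Ly6d and Prom1, while Wnt4 rose in P4. The list's median went from 3.86 and 3.38 in virgin P5 to -0.21 and -0.06 in pregnant P5, and from 1.08 and 0.49 to -0.09 and 0.23 in P4. The virgin P5 arrays were thus the highest, and the pregnant arrays of both populations lay near 0. Pgr, the progesterone receptor, was at 2.68 and 2.72 in virgin P5 and -0.07 and -0.13 in pregnant P5, where it was not well above background, and at 0.33 to 0.54 on all P4 arrays. It was at least 6.75-fold lower in pregnant than in virgin P5 (adjusted p 1.2e-05 in the fit), a bound that sets the virgin mean of the Cy5 signal against the lowest signal well above background on the pregnant arrays. The difference was called above 0 in 7 of the 13, against 4.17% of all genes. Of these, Tbx3 (4.25), Msx2 (3.09) and Wnt4 were well above background on all 8 arrays. Other probes gave differences of 0.20 for Tbx3, 0.91 for Pgr and 2.83 for Prom1, against 4.25, 2.92 and 3.45 on the kept probes. For Pgr and Prom1, the latter at least 22.4-fold lower in pregnant P5, the pregnant P5 values are a floor. For Areg and Foxa1 both pregnant groups were at the floor, so that their differences of 2.89 and 2.87 are no more than the gap between the virgin groups. The call for Foxa1 was lost without any 1 of 6 arrays (adjusted p 0.0502 to 0.0816), and that for Areg with the scanner's log ratio (0.256). Esr1, the oestrogen receptor, fell by 2.58 in P5 on its kept probe, and its P4 effect of -0.95 was not called (adjusted p 0.52). The other probe of Esr1 had a P5 effect of 0.05 and a difference of -0.11. The P5 call of Esr1 was lost without any 1 of 3 arrays (adjusted p 0.0623 to 0.114). Of the 4 that fell in P4, 1 kept its call without virgin P4 replicate 1.

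General luminal genes fell in P5 as well, and none of the 16 was called in P4 (3 at an unadjusted p under 0.05, limma). In P5 9 fell (10.7% of all genes fell there) and Muc1 rose. The difference was called above 0 in 4.17% of all genes. Krt8, Krt18 and Krt19, the keratins of simple epithelia, fell by 2.84, 3.87 and 2.87 in P5, with effects of 1.07, -1.0 and 1.31 in P4 that were not called. Krt8 was at 1.46 and 1.11 in virgin P4, 1.87 and 2.85 in pregnant P4, 3.32 and 4.31 in virgin P5 and 0.40 and 1.55 in pregnant P5, so virgin P5 was the highest group and pregnant P5 overlapped only virgin P4. For Krt18, 1 spot of pregnant P5 was an outlier and was left out. The difference was called for 7 of these genes above 0, the 3 keratins, Krt7, Cldn4, Gata3 and Grhl2, of which 1 kept its call without virgin P4 replicate 2. Of 13 luminal progenitor genes, Aldh1a3, Hey1 and Kit fell in P5, by 3.92, 6.0 and 3.04, and none changed in P4 (2 at an unadjusted p under 0.05, limma). The other probe of Aldh1a3 had a P5 effect of 0.02. The call of Aldh1a3 was lost without virgin P5 replicate 1 or 2 or pregnant P5 replicate 1 (adjusted p 0.0598 to 0.117). Hey1, Kit and Rspo1 were called in the difference, and without virgin P4 replicate 1 or 2, virgin P5 replicate 1 or pregnant P5 replicate 1 for 1 of these 3. In pregnant P5 the general luminal median was 1.78 and 2.38, and the hormone-sensing median was near 0. The general luminal median is taken over a list that holds the keratins, Cldn4, Gata3 and Grhl2, so it moves with them by construction. The part of a change in the cells sorted into P5 was not tested.

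**Figure D3:**
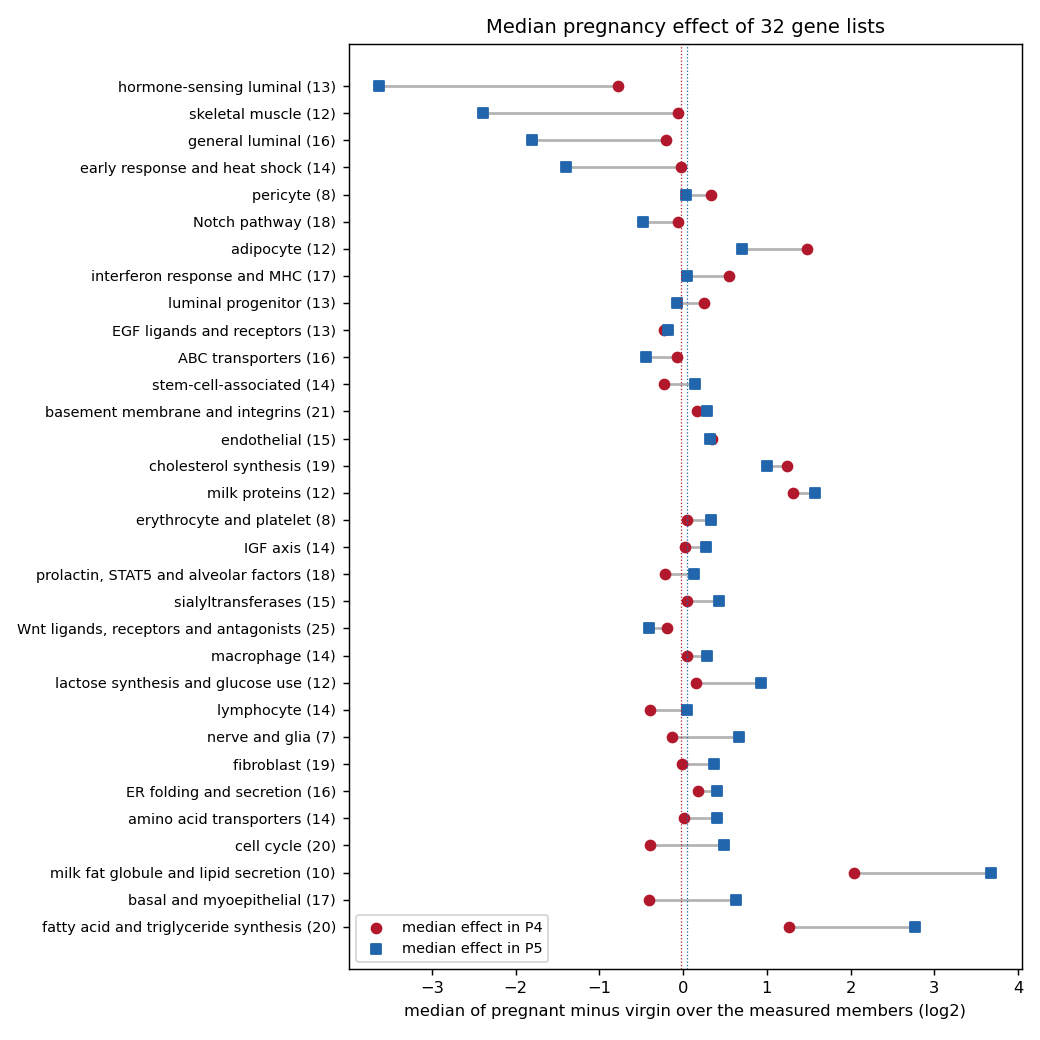
Median effect of pregnancy (pregnant minus virgin, log2, x axis) over the measured members of each of 32 gene lists, with the number measured in brackets; red circles are P4, blue squares are P5 and the dotted lines are the medians over all genes. The widest gaps are those of hormone-sensing luminal genes (-0.77 in P4, -3.63 in P5) and skeletal muscle genes (-0.06 and -2.39), and milk fat secretion (2.05 and 3.68) and fatty acid synthesis (1.26 and 2.77) have the highest medians in P5.

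Responses restricted to P4 were fewer. Lep, the gene of the fat cell hormone leptin, was at 0.31 and 0.28 in virgin P4, 3.92 and 4.78 in pregnant P4, 0.01 and -0.04 in virgin P5 and 0.61 and 0.39 in pregnant P5, and 1 of the 2 virgin P5 arrays was well above background. The pregnant P4 arrays were above all others by more than 3 log2 units. Lep rose 16.6-fold in P4 (log2 4.06 ± 0.25 SE, adjusted p 0.00038), its P5 effect of 0.52 was not called (adjusted p 0.19), and the difference was 3.54 ± 0.35 (adjusted p 0.0014). Within scan 2 the difference was 4.07. With the scanner's own log ratio the difference for Lep was not called (adjusted p 0.0805).

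Fat cell genes differed among themselves from array to array. Adipoq, the adiponectin gene, was at 4.54 on pregnant P4 replicate 1 and 0.65 on replicate 2, against 0.61 and 0.52 in virgin P4, while Lep was as high on replicate 2 (4.78) as on replicate 1 (3.92). The median over the 12 fat cell genes, Lep among them, was 3.69 and 1.14 in pregnant P4, 0.72 and 0.46 in virgin P4, 0.07 and 0.17 in virgin P5 and 1.16 and 0.31 in pregnant P5. It was thus high on 1 array of pregnant P4. Of the 12, Lep and Plin4, a coat protein of lipid droplets, rose in P4, where 1.49% of all genes rose. Plin4 was at 1.76 and 0.69 in virgin P4 and at 4.03 and 4.02 in pregnant P4 (effect 2.80, adjusted p 0.018), a call that was lost without virgin P4 replicate 2 or either pregnant P4 array.

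The other leading P4-restricted genes nearly all fell. Adamts18, a secreted protease, was at 4.40 and 4.55 in virgin P4, 0.81 and 0.90 in pregnant P4, 0.31 and 0.20 in virgin P5 and 0.37 and 0.71 in pregnant P5. Virgin P4 was the only high group, and the pregnant P4 arrays lay close above those of P5. Adamts18 fell by 3.62 in P4 (adjusted p 5.7e-05), with a difference of -3.90 ± 0.22 (adjusted p 0.00021). Its other probe gave a difference of -0.16. The same order, with virgin P4 above the other 3 groups, held for Mybph, which fell by 3.66, Serpinb11 by 3.93, Ltbp2, a matrix protein that binds fibrillin, by 3.38, Lyve1, a receptor for hyaluronan, by 3.16, Adcy7, an adenylyl cyclase, by 3.1, Slit2, a secreted guidance cue, by 2.89 and Fibin by 2.56. Dmpk, a protein kinase, rose by 2.61. The differences for Serpinb11, Ltbp2 and Lyve1 lost their calls without any 1 of 6, 5 and 3 arrays (adjusted p 0.0849 to 0.112, 0.0536 to 0.0731 and 0.0529 to 0.0578), and that for Fibin without virgin P4 replicate 2 (0.0523). Median centring ended the calls for Adcy7, Slit2 and Fibin (adjusted p 0.211 to 0.239).

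Some genes tied to stem cells changed with pregnancy in P4. Lgr5, a receptor for R-spondins that marks stem cells in several epithelia, was at 4.45 and 4.34 in virgin P4, 0.41 and 0.73 in pregnant P4, 0.41 and 0.68 in virgin P5 and 0.10 and -0.06 in pregnant P5. Virgin P4 alone was high, pregnant P4 and virgin P5 overlapped, and the gene was not well above background in pregnant P5. Lgr5 fell by 3.83 in P4 (adjusted p 5.7e-05) and by 0.53 in P5 (adjusted p 0.047), with a difference of -3.30 ± 0.22 (adjusted p 0.00034) that was not called with the scanner's log ratio (adjusted p 0.304). Its P5 call was lost without any 1 of 6 arrays (0.0744 to 0.241). Of 14 stem-cell-associated genes the difference was called below 0 in 4: Lgr5, Bcl11b, Lgr4 and Procr, the protein C receptor. Bcl11b, a transcription factor, fell by 2.18 in P4, and Lgr4 rose by 2.86 in P5 on its kept probe. Of these 4, 1 kept its call without virgin P4 replicate 2. The list's median difference was 0.13, with 10 of the 14 not called. Over all genes the difference was called below 0 in 3.92%. Other probes of Lgr4 had effects of -0.31 and -1.69 in P4 and 3.44 and -1.58 in P5. Its call in the difference was lost with the mean over probes and under median centring.

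Of 25 Wnt ligands, receptors and antagonists, the difference was called in 5, against 8.08% of all genes. In P4, 2.22% of all genes fell. Wif1, a secreted Wnt inhibitor, was at 5.81 and 6.09 in virgin P4, 3.07 and 3.49 in pregnant P4 and 0.15 to 1.03 on the P5 arrays, and it fell by 2.67 in P4 (difference -2.26, adjusted p 0.0079). On its kept probe Sfrp1, another secreted Wnt antagonist, rose by 3.29 in P5 alone (difference -2.89, adjusted p 0.0046). It went from 0.64 and 0.89 to 3.75 and 4.36 there, while it stayed between 2.83 and 3.69 in P4. The other probe of Sfrp1 had effects of 0.49 in P4 and 1.00 in P5, a difference of -0.51. With the local backgrounds as given, Sfrp1 lost its call in the difference. The ligand Wnt10a fell by 1.21 in P4 and rose by 1.26 in P5 (difference -2.46). Rspo1, an R-spondin, had a difference of 2.50 with neither effect called, and that call was lost without any 1 of 5 arrays (adjusted p 0.0502 to 0.0877). The P4 call of Wnt10a was lost without any 1 of 8 arrays (0.0537 to 0.244). In P4 5 of the 25 fell, and 1 of these kept its call without virgin P4 replicate 2. Pappa, the protease that frees insulin-like growth factors from a binding protein, and Abcg5, a sterol transporter, also fell chiefly in P4: Pappa from 3.50 and 3.50 to 0.02 and -0.30, and Abcg5 from 2.36 and 2.47 to 0.52 and 0.38, with differences of -3.04 and -2.29 (adjusted p 0.00042 and 0.00055). Median centring ended the calls for Wif1, Sfrp1, Wnt10a and Rspo1.

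Opposite responses were the rarest. Tnni2, the troponin I of fast skeletal muscle, was at -0.29 and -0.04 in virgin P4, 3.79 and 4.31 in pregnant P4, 3.22 and 2.92 in virgin P5 and 1.01 and 0.27 in pregnant P5. Pregnant P4 and virgin P5 were the high groups, and no 2 groups overlapped. Tnni2 rose 18.5-fold in P4 (log2 4.21 ± 0.31 SE, adjusted p 0.00073) and fell by 2.43 in P5 (adjusted p 0.0011). Its difference of 6.64 ± 0.44 (adjusted p 0.00029) was 7.0 within scan 2. With the slide as a block its P5 call was lost (adjusted p 0.0901).

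The rest of the skeletal muscle genes followed Tnni2 in P5 but not in P4. Of 12 such genes, 11 fell in P5 and Tnni2 alone rose in P4. Of all genes, 10.7% fell in P5, 1.49% rose in P4 and 4.17% were called above 0 in the difference. The median of the list was 2.55 and 2.61 in virgin P5, 0.57 and 0.00 in pregnant P5 and -0.17 to 0.00 on the 4 P4 arrays, so only the virgin P5 arrays were high. Tnnc2, the calcium-binding troponin of the same muscle, fell by 3.52 in P5 and Mylpf, a myosin light chain, by 2.99, with P4 effects of -0.45 and 0.23. Myh8, a developmental myosin, fell by 3.76 in P5, and its P4 effect of 1.60 was not called. The difference was called above 0 in 8 of the 12, and at least 6 kept their calls without any 1 array. With the scanner's log ratio, with the series table or under median centring 4 of the 8 kept them, and with the slide as a block 6 of the 11 P5 falls did. The part of muscle RNA in the virgin P5 samples in these results was not tested.

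Wnt4, which luminal cells secrete in response to progesterone, was at -0.63 and -0.96 in virgin P4, 0.74 and 0.81 in pregnant P4, 1.78 and 2.20 in virgin P5 and -1.95 and -1.33 in pregnant P5. It rose by 1.57 in P4 and fell by 3.63 in P5 (difference 5.19 ± 0.43, adjusted p 0.00074), and the population with the higher level changed with pregnancy. The difference was called without any 1 array, but the P4 effect was not called without either virgin or either pregnant P4 array (adjusted p 0.110 to 0.201). Sct, which encodes the hormone secretin, ran the other way: 3.29 and 3.30 in virgin P4, 0.38 and 0.45 in pregnant P4, 0.20 and 0.12 in virgin P5 and 2.24 and 2.29 in pregnant P5. It fell by 2.88 in P4 and rose by 2.10 in P5 (difference -4.98 ± 0.33, adjusted p 0.00029). In Sct no 2 groups overlapped, and replicates lay close together.

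Panx1, which forms a membrane channel for small molecules such as ATP, resembled Sct. It was at 2.99 and 3.19 in virgin P4, 0.44 and 1.14 in pregnant P4, -0.81 and -0.55 in virgin P5 and 1.41 and 2.28 in pregnant P5, with effects of -2.29 and 2.52. Hs6st2, which sulphates heparan sulphate, fell by 2.36 in P4 and rose by 2.03 in P5. Azin1, the inhibitor of the antizyme that marks Odc1 for degradation, fell by 1.09 and rose by 2.38. S100a6, Tsc22d1 and H1f2 rose in P4 and fell in P5 by similar amounts: the calcium-binding protein S100a6 by 2.05 and 2.62, the transcriptional regulator Tsc22d1 by 1.68 and 1.81, and the linker histone H1f2 by 1.90 and 1.35. Arl10, a small GTPase-like protein, rose by 0.68 and fell by 2.81, and its other probe gave a difference of -0.42 against 3.49. H1f2 lost its call in the difference without scan 3 (adjusted p 0.0578). Median centring ended that of Azin1 (0.0844).

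**Figure D4:**
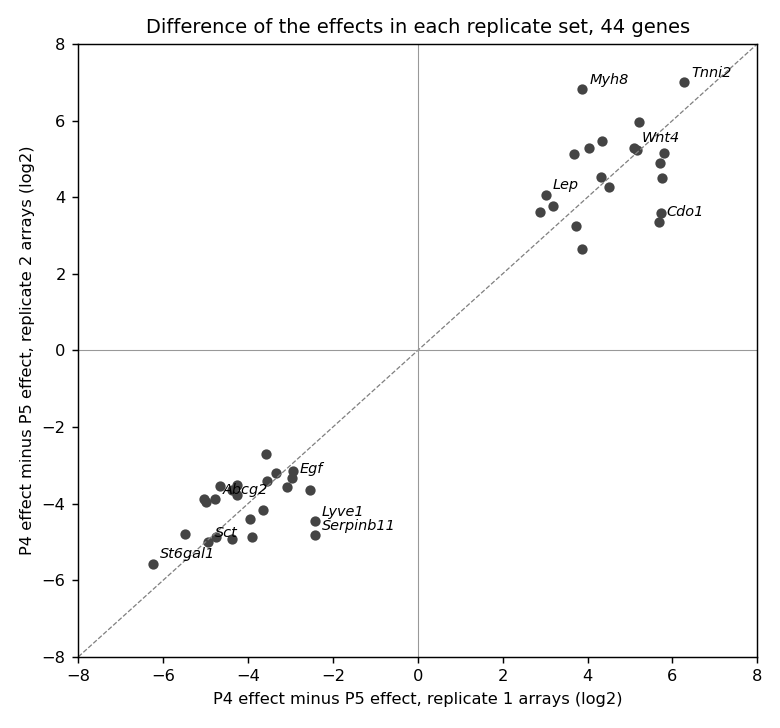
Difference of the pregnancy effects (P4 minus P5, log2) for the 44 genes named for it, computed from the replicate 1 arrays (x axis) and from the replicate 2 arrays (y axis), 1 point a gene. All 44 have the same sign in both sets, and the smallest absolute values are 2.43 and 2.64; the genes were chosen from the mean of both sets.

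EGF family members moved in several directions. Of 13 ligands and receptors, Areg fell in both populations and Egf rose in both, as given above. The kept probes of the receptors Egfr and Erbb3 fell in P5, by 1.26 and 2.60. The other probes of Egfr had P5 effects of -0.28 to 1.04, and the P5 call of Egfr was lost with the mean over probes (adjusted p 0.91) and without virgin P5 replicate 1 or pregnant P5 replicate 1 (0.0552 and 0.0775). The other probes of Erbb3 had P5 effects of -0.46 to -0.15. Btc, betacellulin, and Erbb2, a shared co-receptor of the family, fell in P5 by 2.19 and 2.14, with P4 effects of -0.09 and -0.22 that were not called and differences of 2.10 and 1.92 (adjusted p 0.017 and 0.0012). The other probe of Erbb2 had a P5 effect of -0.56. Nrg1, a ligand that basal cells are known to make, rose by 2.67 in P4 (adjusted p 0.015), from -0.12 and 0.70 to 3.55 and 2.37, and its difference of 1.99 was not called (adjusted p 0.086). Btc was not well above background in either pregnant group, so that its difference is no more than a gap between the virgin groups, and it was at least 4.43-fold lower in pregnant than in virgin P5. Its call in the difference was lost without any 1 of 4 arrays, and Nrg1's P4 call without any 1 of 3.

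Parts of the Notch pathway and of the early response fell in P5. Of 18 Notch genes, 7 fell in P5 (10.7% of all genes fell there), among them the receptors Notch1 and Notch2 and the ligand Jag1. In P4 none was called (4 at an unadjusted p under 0.05, limma), where 3.71% of all genes were. The other probes of Notch2 had P5 effects of 1.37 and 0.03, and its P5 call was lost with the mean over probes (adjusted p 0.80). The other probe of Jag1 gave a difference of 0.19. Hey1, a target of the pathway, was at 2.98 and 2.83 in virgin P4, 0.82 and 1.47 in pregnant P4, 4.84 and 4.84 in virgin P5 and -1.01 and -1.31 in pregnant P5. Its difference of 4.24 (adjusted p 0.0051) and that of Jag1, 3.37, were the 2 called, the latter lost without any 1 of 3 arrays (adjusted p 0.0519 to 0.0567). Without pregnant P5 replicate 1, 3 of the 7 P5 calls remained. Of 14 early response and heat shock genes, which respond to cell handling within minutes, 5 fell in P5 and none changed in P4 (3 at an unadjusted p under 0.05, limma), while the heat shock gene Hsph1 rose by 1.39 in P5. The list's median was 2.36 to 3.41 on the virgin arrays and on the pregnant P4 arrays but 0.63 and 1.71 in pregnant P5. Egr1 fell by 2.38 in P5 with an effect of 0.76 in P4 (difference 3.15, adjusted p 0.0094). Of the 5 falls, 1 remained without virgin P5 replicate 1 or pregnant P5 replicate 1. The part of handling in these results was not tested.

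Sialyltransferases and ABC transporters had more calls in P5 than in P4, as all genes did (21.5% and 3.71%). Of 15 sialyltransferases, 6 rose in P5 and St3gal2 in P4, and St6gal1 was the 1 with a called difference. The other 5 that rose in P5 did so by 0.50 to 2.20, against 6.52 for St6gal1 on its kept probe and 1.15 on its other probe, which lies within that range. Of 16 ABC transporters, Abcg2 and Abcd3 rose in P5 and 6 fell there, with effects down to -3.07 for Abcc3 on its kept probe. The other probe of Abcc3 had a P5 effect of 0.02. Of all genes, 10.8% rose and 10.7% fell in P5. Slc7a2, a carrier of cationic amino acids, fell by 1.92 in P5 (difference 1.98, adjusted p 0.0012), whereas Slc7a5, a carrier of large neutral amino acids, rose by 1.73 there (difference -2.77, adjusted p 0.0085). Of the 6 rises among sialyltransferases, 2 remained without either virgin P5 array or pregnant P5 replicate 2, and of the 6 falls among ABC transporters, 3 remained without virgin P5 replicate 1.

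Lactose synthesis rose in part. Of 12 genes of lactose synthesis and glucose use, B4galt1, which encodes the galactosyltransferase of lactose synthase, rose in P4 and 5 rose in P5. Of all genes, 1.49% rose in P4 and 10.8% in P5. B4galt1 was at -0.43 and -0.66 in virgin P4, 1.29 and 1.75 in pregnant P4, 0.96 and 0.65 in virgin P5 and 4.79 and 4.42 in pregnant P5. Both effects were rises, of 2.06 and 3.80, and the difference was not called (adjusted p 0.061). The P4 call was lost without any 1 of 3 arrays (adjusted p 0.0750 to 0.120).

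Of 18 genes of prolactin signalling, STAT5 and alveolar factors, the difference was called above 0 in Wnt4 and Gata3 and below 0 in Akt1, Cish and Socs1. Over all genes it was called above 0 in 4.17% and below 0 in 3.92%. Socs1 and Cish encode inhibitors of cytokine signalling. Socs1 was at 1.57 and 1.58 in virgin P4, -0.25 and -0.53 in pregnant P4, -1.12 and -1.37 in virgin P5 and -1.47 and -0.76 in pregnant P5, so virgin P4 alone was high. It fell by 1.97 in P4 with a difference of -2.10 (adjusted p 0.037). The differences for Socs1, Akt1 and Cish were lost without any 1 of 7, 6 and 6 arrays (adjusted p 0.0737 to 0.115, 0.0793 to 0.115 and 0.0794 to 0.137).

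Protein folding, matrix and insulin-like growth factor genes were counted beside all genes, of which 10.8% rose and 10.7% fell in P5. Of 16 genes of folding and secretion in the endoplasmic reticulum, 4 rose and 1 fell in P5 and none changed in P4 (3 at an unadjusted p under 0.05, limma), and 1 of the 4 rises remained without virgin P5 replicate 1 or pregnant P5 replicate 1. Called differences were those of the chaperone Canx (0.98) and of the translocon subunit Sec61b (-1.66), each lost without any 1 of 7 arrays (adjusted p 0.0564 to 0.116 and 0.0551 to 0.108). Of 21 basement membrane and integrin genes, 6 rose and 4 fell in P5, and none was called in P4 or in the difference (4 and 5 at an unadjusted p under 0.05, limma). Without pregnant P5 replicate 1 none of these 6 rises and 1 of these 4 falls remained.

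Of 14 genes of the insulin-like growth factor axis, 1 rose and 2 fell in P4, and 2 rose and 5 fell in P5, of which 1 fall remained without virgin P5 replicate 2. The difference was called for Pappa, described above, and for Igfbp3, which encodes a binding protein of these factors. Igfbp3 was at 3.74 and 3.98 in virgin P4, 2.42 and 2.14 in pregnant P4, -0.71 and -0.99 in virgin P5 and 0.38 and -0.30 in pregnant P5, so the P4 arrays were above all P5 arrays in both conditions. Its difference of -2.47 (adjusted p 0.045) was lost without any 1 array (0.0650 to 0.145), and neither effect alone was called.

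Some lists showed few or no called differences. Of 20 cell cycle genes none was called in the difference or in P4 (3 at an unadjusted p under 0.05 in each, limma), and Mki67, a marker of dividing cells, rose by 2.63 in P5, a call that was lost without virgin P5 replicate 1 or either pregnant P5 array. Of 17 basal and myoepithelial genes none was called in the difference or in P4 (6 and 4 at an unadjusted p under 0.05), although 5 contractile genes, Acta2, Cnn1, Myh11, Mylk and Tagln, had differences of -2.14 to -3.52. Of these Mylk alone was called in P5, at 3.08, and it lost that call without any 1 of 3 arrays (adjusted p 0.0763 to 0.147). Of 17 interferon and MHC genes the difference was called above 0 in Psmb8, Psmb9 and Gbp2, against 4.17% of all genes. Psmb8, a subunit of the immunoproteasome, rose by 0.67 in P4 and fell by 1.09 in P5 (difference 1.76, adjusted p 0.0016), and its P4 call was lost without any 1 of 6 arrays. The differences for Psmb9 and Gbp2 were lost without any 1 of 7 and 6 arrays (adjusted p 0.0533 to 0.123 and 0.0584 to 0.0996). Among markers of other cells, the difference was called in 1 of 15 endothelial genes, 2 of 19 fibroblast genes, 2 of 14 lymphocyte genes (8.08% of all genes) and none of the pericyte, macrophage, nerve and glia, or erythrocyte and platelet genes (0, 1, 1 and 2 at an unadjusted p under 0.05, limma).

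**Figure D5:**
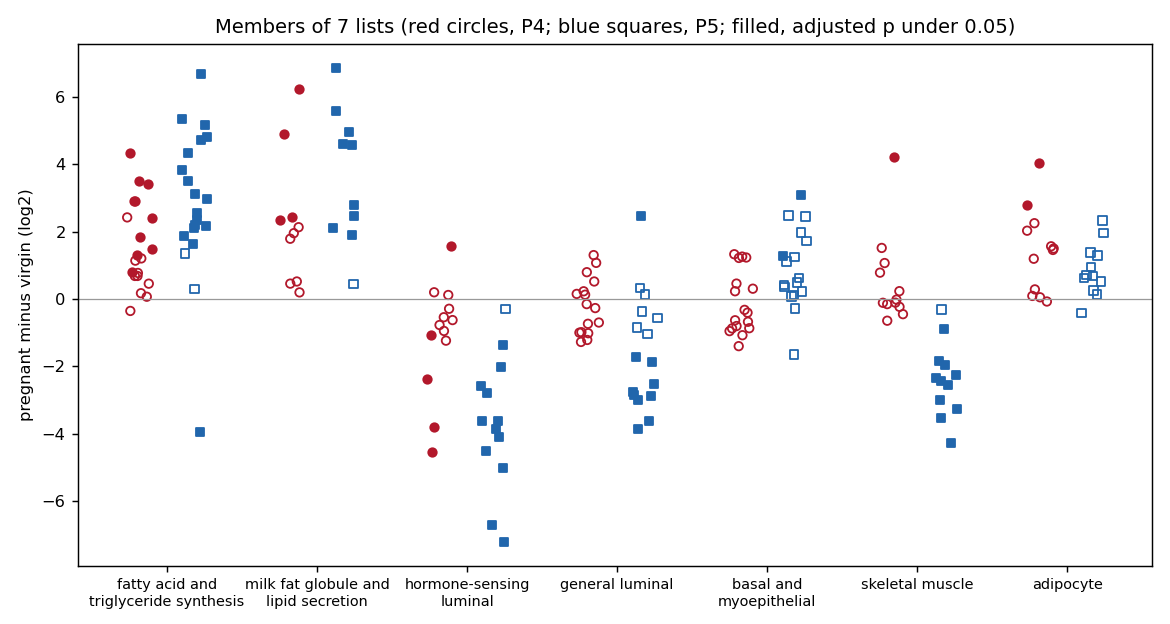
Effect of pregnancy (pregnant minus virgin, log2, y axis) for each measured gene of 7 lists, red circles P4 and blue squares P5; filled points have an adjusted p under 0.05 and open points do not. In P5 most points of the hormone-sensing luminal list (12 of 13) and of the skeletal muscle list (11 of 12) are filled and below 0, and 17 of 20 of the fatty acid list are filled and above 0.

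The populations were further apart in the pregnant than in the virgin gland. The P4 minus P5 log2 ratio had an SD over genes of 0.754 in the virgin and 0.896 in the pregnant gland, and 2637 and 4235 genes were at least 2-fold apart. In both virgin replicates P4 and P5 shared a slide, but in pregnant replicate 2 P4 was on slide 2 and P5 on slide 4. A slide offset can thus enter the pregnant gap but not the virgin gap, and its part was not tested. Of the 1911 genes called in the difference, 597 (31.2%) had a smaller absolute gap in the pregnant gland, against 37.4% of all genes tested. The share was 59.6% (115 of 193) among genes restricted to P4, as in Adamts18 and Mybph, 26.4% among genes restricted to P5, as in Pgr, and 40.3% among opposite genes. These shares come from the same arrays that defined the classes and are given as a description.

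Several probes of a gene did not always agree. Of the 44 genes named for the difference, 22 had other probes, 31 in all. The sign was that of the kept probe in 26, of which 19 had an absolute difference of at least 1, and opposite in 5, none of which reached 1. Tgm2, Odc1, Drd4 and Mybph had other probes with differences of 3.28 and 4.04, -3.95 and -3.72, -3.33 and -3.16. Panx1 and Adamts5, like St6gal1, had other probes of the same sign and smaller size, at -1.33 and -1.39, as did Adcy7 (-1.13), Lyve1 (-0.86), Slit2 (-0.66 to -2.02) and Fgfr2 (2.08 and 2.34). Besides Adamts18 and Arl10, other probes near 0 were found for Ltbp2 (-0.20), Myh8 (-0.15) and Piezo2 (-0.17), and for 1 of those of Azin1 (-0.25), of Lmo7 (-0.01) and of Dmpk (-0.18).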

How the data were processed

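The authors deposited 1 scanner file per array, made with Agilent Feature Extraction 9.5.3.1 per the submitters' processing notes. Per the file headers it holds mean and background intensity on a linear scale and the scanner's log10 ratio of Cy5 over Cy3. The series table the authors deposited holds log2 values, which matched that ratio (r 0.990 to 1.000). Its column medians were -0.0182 to 0.102. Flags and positions as deposited are other values, without a unit.

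Intensities were corrected in R 4.3.3 with limma 3.58.1: normexp (offset 50) after replacing 412 to 1659 outlying local backgrounds per array, then loess within arrays. Replacing them was chosen after seeing the data. Probes well above background in Cy5 on both arrays of a group were kept, and the brightest probe stood for a gene. This gave 23646 genes, 18032 with a RefSeq symbol. A group-means model over the 12 wild-type arrays (6 groups of 2, 6 residual degrees of freedom, no block) was fitted with lmFit and eBayes, Benjamini-Hochberg threshold 0.05.

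The genes shown and the 32 lists were chosen with earlier results of these data known. Named were the 15 genes with the largest called difference in each direction, 10 per class, 4 markers (Lep, Abcg2, Egf, St6gal1) and called list members. Alternatives covered background, scaling, filter, probes, blocks and left-out arrays. Numbers pair arrays within a condition (correlation 0.313 to 0.686 over 6 pairs) but not across (-0.203 to 0.138 over 9).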

Additional observations from a re-analysis of the deposited data

Results flagged for a closer look

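The effects of pregnancy differed between P4 and P5 by the test of the difference itself (limma, adjusted p under 0.05) in 1911 genes, and the 44 named for it were singled out for that reason. The difference is P4 effect minus P5 effect on the log2 scale throughout.

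Among genes with the larger fall, or the smaller rise, in P5, the differences were 6.64 for Tnni2, 5.59 for Tgm2, 5.48 for Ptn, 5.35 for Myh8, 5.29 for Phyh, 5.20 for Samd5, 5.19 for Wnt4, 5.12 for Fgfr2, 4.90 for AW112010, 4.66 for S100a6, 4.66 for Tmem158, 4.53 for Cdo1, 4.42 for Krt7, 4.41 for Piezo2 and 4.39 for Lmo7. Lep at 3.54, Arl10 at 3.49, Tsc22d1 at 3.48, H1f2 at 3.25 and Dmpk at 3.24 were further genes above 0. Those of Tnni2 and Myh8 stand beside the fall of 11 of 12 skeletal muscle genes in P5, and that of Lep beside the array-to-array range of the fat cell genes.

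Among genes with the larger rise, or the smaller fall, in P5, the differences were -5.90 for St6gal1, -5.14 for Tent5c, -4.98 for Sct, -4.82 for Panx1, -4.65 for Odc1, -4.46 for Kcnk6, -4.45 for Adamts5, -4.39 for Hs6st2, -4.33 for Abcg2, -4.18 for Drd4, -4.10 for Sema7a, -4.02 for Ccdc74a, -4.01 for Slc6a16, -3.90 for Adamts18 and -3.88 for Slc16a1. Serpinb11 at -3.63, Azin1 at -3.47, Lyve1 at -3.44, Slit2 at -3.32, Mybph at -3.27, Egf at -3.15, Ltbp2 at -3.14, Fibin at -3.10 and Adcy7 at -3.05 were further genes below 0.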

How the results depend on the processing

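Every count below is at an adjusted p under 0.05 in limma, and the cause of each move was not tested. The values as reported were 1911 calls in the difference, 878 in P4, 5079 in P5, 362 shared, 193 restricted to P4, 1436 restricted to P5 and 62 opposite, and counts not given here stayed within 1.5 times of these. Centring arrays on the median, which moves the median difference of all genes to 0.225, gave 650, 187, 2471, 86, 39, 458 and 11 in that order. With the local backgrounds as given they were 885, 576, 3313, 231, 103, 623 and 35. The scanner's log ratio gave 445 in P4, 217 shared, 81 restricted to P4 and 22 opposite, and with the values of the series table these were 460, 226, 84 and 22. With the slide as a block 4327 were called in the difference, 1243 in P4 and 3428 in P5, with 354 restricted to P4 and 2353 to P5. The scan as a block gave 6263, 1762, 8424, 784, 554, 4481 and 203. One replicate block shared by both conditions gave 2964 in the difference, 307 and 2205 restricted to P4 and P5 and 117 opposite. A replicate block in each condition gave 6263, with 374 and 3395 restricted. Without the 3 arrays of scan 3, 542 were called in P4, 241 shared and 127 restricted to P4. Leaving out single arrays gave 778 to 1559 in the difference, 156 to 731 in P4, 2390 to 5031 in P5, 74 to 295 shared, 54 to 141 and 581 to 1197 restricted to P4 and P5, and 7 to 38 opposite.

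Signs turned for Col5a1 under median centring, to 0.14 in the difference and -0.11 in P5, and for Srebf2, whose P5 effect was 0.22 with the mean over probes. Of 362 values of named genes, 357 to 362 of which each setting gave, 114 kept their call under every setting that gave a value. The number that lost it was 162 under median centring, 83 with backgrounds as given, 77 without scan 3 and 46 to 119 without 1 array. It was 0 with the shared replicate block and 24 with a block in each condition. With 2 arrays a group, precision is limited by their number, and dim probes have only bounds.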
